A study of Homo sapiens with 12 samples.

Results

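The response of A549 cells to loss of NRF2 was read from 4 of the 12 RNA sequencing libraries of the series. The 4 were chosen by their labels as all libraries of this cell line: 2 received a control siRNA and 2 an siRNA against NRF2, number 28 in one and number 30 in the other. A549 is an established human lung adenocarcinoma line, and the labels give all 4 libraries, controls included, a KEAP1 mutation. Cells were grown in high-glucose DMEM with fetal bovine serum and collected 48 h after transfection. Ribosomal RNA was removed with a Ribo-Zero Gold kit and no polyA selection was made, so RNAs without a polyA tail could be read. The H2023 and H460 lines of the series were polyA-selected. Each group held 2 libraries of the line, which the methods call biological duplicates, and nothing in the labels says that they came from separate cultures. The NRF2 duplicates were made with different siRNAs, so their spread included the difference between siRNAs. The p-values therefore measure only the spread between these 4 libraries, which may be technical.

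NRF2, encoded by NFE2L2, is a basic leucine zipper transcription factor that pairs with small MAF proteins on antioxidant response elements. In most cells KEAP1 binds NRF2 and hands it to a CUL3 ubiquitin ligase, and oxidants or electrophiles that modify KEAP1 let NRF2 accumulate. In lung tumours with a damaged KEAP1, NRF2 stays high without stress, and its targets make glutathione and NADPH, reduce quinones and carbonyls, conjugate and export foreign compounds, and store iron.

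The values were FPKM, fragments scaled to transcript length and to the number of fragments mapped. The 4 libraries summed to between 925611 and 1159274 FPKM and held between 13434 and 13893 genes at 1 FPKM or above. Depth in reads was not given by these values. Many short RNAs of 1 annotated length shared exactly 1 low value, which is taken here as the value of 1 fragment. As medians over 5 lengths, this value in the first control was 1.20, 1.37 and 1.30 times that in the second control, siRNA 28 and siRNA 30 libraries. The ranges were 1.05 to 1.21, 1.08 to 1.43 and 1.03 to 1.32. In the first control and with siRNA 28 it was 13.9 and 9.76 FPKM at 102 bases, but 0.181 and 0.167 FPKM at 297 bases. The ratio thus changed with length and is not taken as a ratio of depth. Small noncoding RNAs took 28.9% and 30.9% of the FPKM sum with control siRNA, 39.3% with siRNA 28 and 30.1% with siRNA 30. Protein-coding genes took 51.5%, 50.1%, 40.8% and 49.3%. The library of siRNA 28 thus stood apart from the other 3 in its RNA classes. Its part in the results was not tested beyond the counts without that library, which are given in all and for each list whose count they moved by over 1.5 times.

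**Figure D1:**
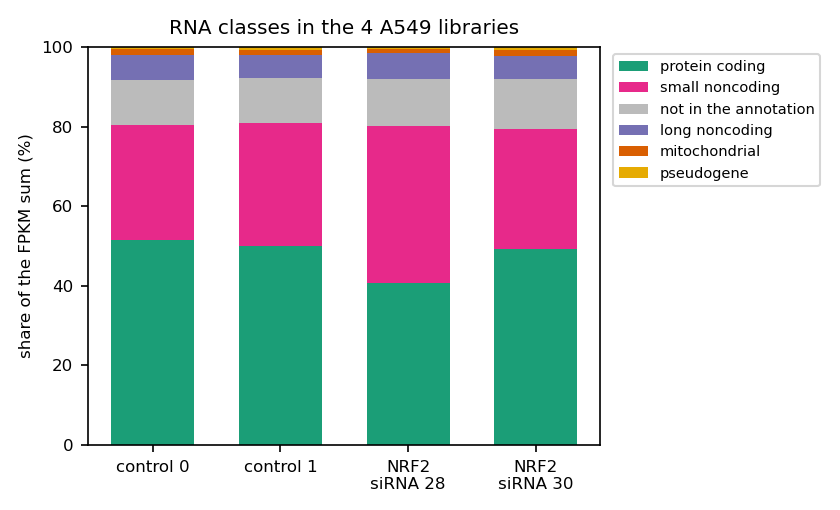
Share of the FPKM sum in percent (vertical axis) taken by each RNA class in the 4 A549 libraries (1 bar each). The siRNA 28 bar has 39.3% small noncoding RNA, against 28.9% to 30.9% in the other 3.

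Epithelial markers were high on both treatments. KRT18, an epithelial keratin, lay at 5089 and 3562 FPKM with control siRNA, 4566 FPKM with siRNA 28 and 5394 FPKM with siRNA 30. Of 9 airway and gland markers 8 were tested and none passed the threshold. Of 12 alveolar type II and lung lineage markers 10 were under 1 FPKM in every library, among them NKX2-1, NAPSA and the surfactant gene SFTPB, so the defining markers of the alveolar lineage were at or near 0 in this adenocarcinoma line. Of 6 squamous and 6 neuroendocrine markers 1 of each was tested, and neither passed. For blood, endothelial and fibroblast cells 8 of 9 markers found were under 1 FPKM throughout. The exception was CD68, a lysosomal protein of macrophages that epithelial lines can also express, at 14.04, 15.6, 26.6 and 30.7 FPKM in the controls and then siRNA 28 and 30 (log2 difference 0.90 ± 0.15 SE, adjusted p = 0.0975), and it was called higher on protein-coding genes alone, at 0.97.

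NFE2L2 itself was read first, because it checks the labels (chromosome 2, 178083395 to 178257484 on GRCh37). It lay at 38.2 and 30.9 FPKM with control siRNA, 5.31 FPKM with siRNA 28 and 7.84 FPKM with siRNA 30. Both knockdown libraries were thus far below both controls, with siRNA 28 the lower. On log2(FPKM + 1), the scale of every difference below, the change was -2.24 ± 0.22 SE, adjusted p = 0.0178 in limma. In bulk RNA, fewer expressing cells and less RNA per cell cannot be told apart. Without the first control library the difference was -2.09 (adjusted p = 0.148) and without the second -2.39 (adjusted p = 0.0803), neither past the threshold.

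Of 13898 genes with at least 1 FPKM in 2 or more of the 4 libraries, 77 were lower (0.554%) and 17 higher (0.122%) after NRF2 siRNA at an adjusted p under 0.05. The 77 lower genes were 57 protein-coding genes (0.497% of 11464 tested), 8 pseudogenes (1.09% of 731), 3 long noncoding RNAs (0.325% of 922) and 9 small noncoding RNAs. The higher genes were 5 protein-coding genes and 12 small noncoding RNAs. Of the small noncoding RNAs, 8 lower and 12 higher were listed at 0 in both libraries of 1 group and entered the test only through the group where they were high, so these 20 calls were fixed in part by the filter, and no share of the class is given. In all of these, both siRNA libraries lay on the same side of both controls, and each siRNA alone differed from the control mean by at least 1 on the log2 scale. Non-overlap by itself was common, at 20.5% of tested genes lower and 25.2% higher. A difference of at least 1 with each siRNA and no overlap was found for 116 genes lower (0.835%) and 72 higher (0.518%), whatever their p.

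The balance of calls changed when RNA classes were left out and the rest rescaled, and these steps were not told apart. Calls to the lower side made up 81.9% of the 94, and 93.2% (69 lower, 5 higher) without the 20 listed at 0 in 1 group. With median-ratio scaling, which kept all 13898 genes, they made up 80% (84 lower, 21 higher). They made up 60.9% (142 lower, 91 higher) when mitochondrial and small noncoding RNAs were left out and the rest rescaled. On protein-coding genes alone, also rescaled, they made up 45.1% (128 lower, 156 higher). The latter setting was chosen after seeing the data and moved the median of the protein-coding genes from 0.02 to 0.09. The 57 lower and all 5 higher protein-coding genes were all among its calls too. Of the named genes that did not pass, 24 passed without mitochondrial and small noncoding RNAs and 25 on protein-coding genes alone, the rescaled sets of the text below. Without the siRNA 28 library 84 genes were lower and 16 higher, and without the siRNA 30 library 82 and 38. Without the first control library the lower calls fell to 29, and without the second to 30. Besides NFE2L2, 56 genes named with values here passed, of which 39 missed the threshold without the first control and 37 without the second, all with the same sign.

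The overlap of the siRNAs is given for genes at least 1 from the control mean. Among 11464 protein-coding genes, 131 were at least 1 lower with siRNA 28 and 164 with siRNA 30, of which 84 were shared, 64.1% of the first and 51.2% of the second, and the groups did not overlap (0.733%). Upward, 222 genes were at least 1 higher with siRNA 28 and 96 with siRNA 30, and 42 were shared, 18.9% and 43.8% (0.366%). Over all genes tested, small RNAs included, 116 lower genes were shared, 56.9% and 41.9%, and 84 higher genes, 22.2% and 46.4%. Both differences were taken from the same control libraries. Of protein-coding genes 0 went down by at least 1 with one siRNA and up by at least 1 with the other. Among the 57 lower protein-coding genes the median gap between siRNAs was 0.25, and the largest was 1.32 for TM4SF20. The test counts this gap as spread, so genes that pass tend to have a small gap. The median is therefore no measure of how far the siRNAs agree.

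**Figure D2:**
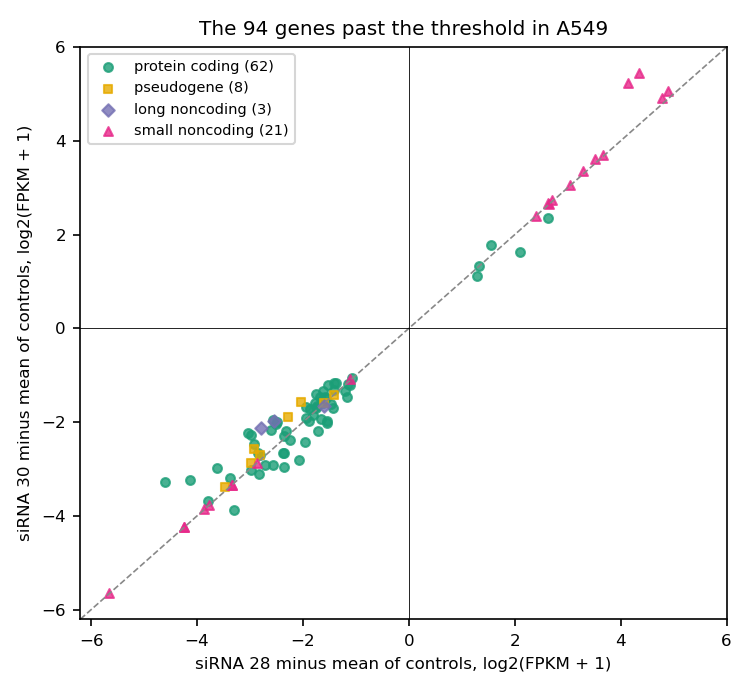
Log2(FPKM + 1) difference from the mean of the controls with siRNA 28 (horizontal axis) and siRNA 30 (vertical axis) for the 94 genes past the threshold, 1 point each, coloured by RNA class; the dashed line marks equal differences. All points lie in the lower left or the upper right of the plot, which the test in part fixes, since it counts a gap between the siRNAs as spread. TM4SF20 lies farthest from the line among protein-coding genes.

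Messenger RNAs of cystine import and of the rate-limiting step of glutathione synthesis fell. Members of a list that are named below without being called or among its smallest p-values were added after the values were seen, for their place in the pathway. Of 10 genes tested for glutathione synthesis and cystine import 4 fell and none rose, and the median difference was -0.76 against 0.02 for all genes tested. Without either control library 2 of the 4 passed. GCLC, the catalytic subunit of glutamate-cysteine ligase, was at 128 and 119 FPKM with control siRNA, 23.4 FPKM with siRNA 28 and 24.3 FPKM with siRNA 30, a difference of -2.33 ± 0.13 SE, adjusted p = 0.00314. Its modifier subunit GCLM moved from 56.9 and 51.3 FPKM to 8.35 FPKM with siRNA 28 and 6.34 FPKM with siRNA 30 (-2.73 ± 0.17 SE, adjusted p = 0.00362). For both subunits the siRNA libraries were close together and far from the controls. SLC7A11, which imports cystine, moved from 53.1 and 45.1 FPKM to 10.8 FPKM with siRNA 28 and 6.17 FPKM with siRNA 30 (-2.44 ± 0.26 SE, adjusted p = 0.0262), with siRNA 30 the lower here. GSR, which regenerates reduced glutathione, fell less, from 265 and 264 FPKM to 119 FPKM with siRNA 28 and 115 FPKM with siRNA 30 (-1.17 ± 0.13 SE, adjusted p = 0.0275). GSS, the second enzyme of synthesis, overlapped between groups at 37.7, 41.8, 46.1 and 32.4 FPKM (-0.04 ± 0.20 SE, adjusted p = 0.958).

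The thioredoxin arm had 3 of 10 genes lower and none higher, with a median of -0.21, which was -0.34 without the siRNA 28 library and -0.11 without the siRNA 30 library. TXNRD1, the reductase that keeps thioredoxin reduced, was at 746 and 641 FPKM with control siRNA, 98.2 FPKM with siRNA 28 and 105 FPKM with siRNA 30 (-2.75 ± 0.15 SE, adjusted p = 0.00294). TXN, thioredoxin itself, moved from 405 and 408 FPKM to 115 FPKM with siRNA 28 and 113 FPKM with siRNA 30 (-1.83 ± 0.13 SE, adjusted p = 0.00554). SRXN1, which repairs overoxidised peroxiredoxins, moved from 168 and 185 FPKM to 33.1 FPKM with siRNA 28 and 26.97 FPKM with siRNA 30 (-2.52 ± 0.16 SE, adjusted p = 0.00338). These 3 stood well clear of the controls with either siRNA. The peroxiredoxin PRDX1 was lower in both siRNA libraries without passing the threshold (-0.96 ± 0.14 SE, adjusted p = 0.0712).

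Among genes that remove peroxide and superoxide, 1 of 10 passed, lower. The count was 4 on both rescaled sets, 2 without the siRNA 30 library and 0 without either control library. The call on all RNAs was GPX3, a secreted glutathione peroxidase, from 8.36 and 7.04 FPKM to 1.83 FPKM with siRNA 28 and 2.44 FPKM with siRNA 30 (-1.48 ± 0.18 SE, adjusted p = 0.0441). GPX2, the gastrointestinal form, was at 1050.1 and 839 FPKM with control siRNA, 80.1 FPKM with siRNA 28 and 250.5 FPKM with siRNA 30. Its difference of -2.72 ± 0.52 SE, adjusted p = 0.133 did not pass, and the siRNA libraries were far apart, siRNA 28 the lower. SOD1 was at 231, 211, 139 and 106 FPKM in the same order (-0.86 ± 0.18 SE, adjusted p = 0.157), and the ferroptosis suppressor AIFM2 differed by -0.93 ± 0.17 SE, adjusted p = 0.122.

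Reductases of quinones and carbonyls gave the group with the most calls, 7 of 17 lower and none higher, with a median of -0.99. Both rescaled sets gave 11 lower. AKR1B10, an aldo-keto reductase of lipid aldehydes and retinal, was at 3144 and 2406 FPKM with control siRNA, 279 FPKM with siRNA 28 and 186 FPKM with siRNA 30 (-3.59 ± 0.25 SE, adjusted p = 0.00561). AKR1C1, which reduces steroid ketones, had the largest fall of the list members that passed, from 398 and 280.4 FPKM to 23.1 FPKM with siRNA 28 and 24.999 FPKM with siRNA 30 (-3.74 ± 0.20 SE, adjusted p = 0.00286). AKR1C2 moved from 1737 and 1205 FPKM to 204 FPKM with siRNA 28 and 167 FPKM with siRNA 30 (-2.96 ± 0.23 SE, adjusted p = 0.00754). Control libraries themselves differed for these genes, the first being the higher, but both siRNA libraries lay far below them. NQO1, a quinone reductase widely used as an NRF2 readout, was at 1471 and 1352 FPKM with control siRNA, 231 FPKM with siRNA 28 and 314 FPKM with siRNA 30 (-2.38 ± 0.20 SE, adjusted p = 0.00950). PTGR1, which reduces unsaturated carbonyls, differed by -2.75 ± 0.14 SE, adjusted p = 0.00286 and PIR, an iron-binding pirin, by -2.25 ± 0.13 SE, adjusted p = 0.00338. AKR1C3 was lower in both siRNA libraries, 1069, 767, 323 and 207 FPKM, without passing (-1.80 ± 0.28 SE, adjusted p = 0.0821), and so were the carbonyl reductase CBR1 (-0.89 ± 0.13 SE, adjusted p = 0.0796) and the quinone reductase NQO2 (-0.98 ± 0.15 SE, adjusted p = 0.0796).

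Aldehyde and epoxide enzymes were split. Of 13 tested 3 fell, ALDH3A1 (-3.30 ± 0.34 SE, adjusted p = 0.0235), ALDH3A2 (-1.31 ± 0.16 SE, adjusted p = 0.0362) and the microsomal epoxide hydrolase EPHX1 (-1.58 ± 0.18 SE, adjusted p = 0.0317), whereas the list's median was near 0 and changed sign between settings (-0.03, and -0.17 to 0.046 without 1 library). Of the 3, 1 passed without the siRNA 28 library (ALDH3A2), 1 without the siRNA 30 library (ALDH3A1), 0 without the first control and 1 without the second. ALDH3A1, an oxidiser of aromatic and lipid aldehydes, was at 1283 and 724 FPKM with control siRNA, 77.3 FPKM with siRNA 28 and 122 FPKM with siRNA 30. The more abundant ALDH1A1, which oxidises retinal, was at 3332 and 2308 FPKM with control siRNA, 2287 FPKM with siRNA 28 and 1886 FPKM with siRNA 30, and this difference did not pass (-0.42 ± 0.24 SE, adjusted p = 0.534). In conjugation 1 of 12 fell, UGDH, which makes the UDP-glucuronate used for glucuronides, from 363 and 278 FPKM to 40.95 FPKM with siRNA 28 and 56.6 FPKM with siRNA 30 (-2.70 ± 0.22 SE, adjusted p = 0.00946). The conjugation count was 4 on both rescaled sets and 0 without the first control library. The glutathione transferase GSTP1 was at 1202, 1176, 609.9 and 691 FPKM (-0.87 ± 0.16 SE, adjusted p = 0.117) and MGST1 at 423, 293, 164 and 163 FPKM (-1.10 ± 0.20 SE, adjusted p = 0.129), lower in both siRNA libraries without passing. Of 8 cytochrome P450 genes tested the fatty acid hydroxylases CYP4F11 (-3.00 ± 0.14 SE, adjusted p = 0.00231) and CYP4F3 (-2.26 ± 0.23 SE, adjusted p = 0.0237) fell (1 of them without either control, and 3 lower and 1 higher on protein-coding genes alone), and the steroid and drug hydroxylase CYP3A5 lay on the other side at 6.004, 4.27, 10.8 and 13.6 FPKM (1.11 ± 0.21 SE, adjusted p = 0.130).

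Genes of the pentose phosphate pathway and other NADPH sources fell in part. Of 17 genes 5 fell and none rose, with a median of -0.13. Count and median were 3 and -0.39 without the siRNA 28 library, the median was -0.25 without the siRNA 30 library, and the count was 0 without either control. PGD, which yields NADPH in the oxidative branch, moved from 623 and 656 FPKM to 189 FPKM with siRNA 28 and 240.3 FPKM with siRNA 30 (-1.58 ± 0.17 SE, adjusted p = 0.0263). The enzymes of the non-oxidative branch TKT (-1.80 ± 0.22 SE, adjusted p = 0.0386) and TALDO1 (-1.53 ± 0.14 SE, adjusted p = 0.0140) fell too, as did ME1, cytosolic malic enzyme (-1.95 ± 0.20 SE, adjusted p = 0.0221). PGLS, the lactonase of the oxidative branch, did not pass, at 31.4, 25.2, 33.01 and 29.97 FPKM (0.16 ± 0.16 SE, adjusted p = 0.731). RPE, the epimerase of the same pathway, differed by 0.06 ± 0.13 SE, adjusted p = 0.887. IDH1, another cytosolic NADPH source, was at 130.1, 131, 83.02 and 78.1 FPKM (-0.69 ± 0.13 SE, adjusted p = 0.125).

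In heme breakdown and iron handling 3 of 12 fell, with a median of -0.83. The count was 6 on both rescaled sets and 0 without either control library. HMOX1, which opens the heme ring, was at 91.3 and 68.6 FPKM with control siRNA, 8.75 FPKM with siRNA 28 and 16.005 FPKM with siRNA 30 (-2.64 ± 0.30 SE, adjusted p = 0.0316). FTH1, the ferritin heavy chain that oxidises iron for storage, moved from 1452 and 1354 FPKM to 245 FPKM with siRNA 28 and 339 FPKM with siRNA 30 (-2.28 ± 0.20 SE, adjusted p = 0.0125), and ABCB6, a porphyrin transporter, by -1.28 ± 0.15 SE, adjusted p = 0.0345. FTL, the ferritin light chain, was at 9933 and 9096 FPKM with control siRNA, 487 FPKM with siRNA 28 and 1415 FPKM with siRNA 30. The difference of -3.52 ± 0.49 SE, adjusted p = 0.0662, missed the threshold, and the siRNA libraries were far from each other as well as from the controls. Of 8 ABC transporters tested 1 passed, ABCC2, an exporter of conjugates, from 119 and 123 FPKM to 30.7 FPKM with siRNA 28 and 31.3 FPKM with siRNA 30 (-1.93 ± 0.13 SE, adjusted p = 0.00378). This call was lost without the first control, and 2 were lower without the siRNA 28 library, without the siRNA 30 library and on both rescaled sets, with 1 higher on protein-coding genes alone. ABCG2 was lower at 19.8, 20.2, 8.95 and 6.07 FPKM (-1.32 ± 0.20 SE, adjusted p = 0.0796), and the drug exporter ABCB1 higher at 7.203, 5.02, 11.5 and 13.8 FPKM (0.95 ± 0.21 SE, adjusted p = 0.171), neither past the threshold.

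**Figure D3:**
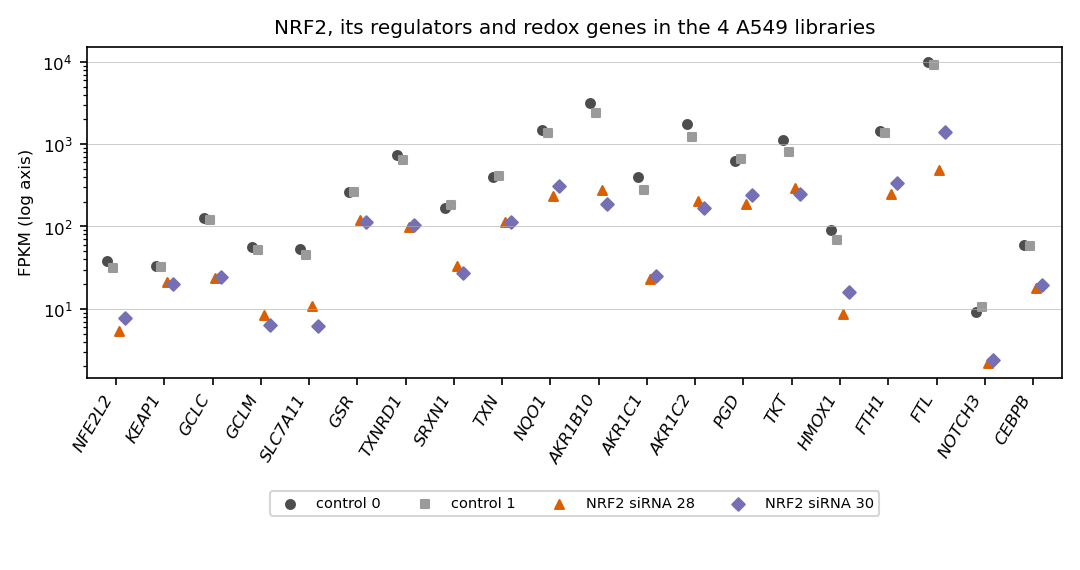
FPKM on a log axis (vertical) of NFE2L2, KEAP1, redox genes, NOTCH3 and CEBPB in the 4 A549 libraries, 1 marker per library with no averaging. In each of the 20 genes both siRNA markers lie below both control markers, and the siRNA markers are widest apart for FTL.

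Genes whose products act on NRF2 or with it were lower in part. Of 24 tested 6 were lower, NFE2L2 among them, and none higher, with a median of -0.48. Without either control library 3 passed. SQSTM1, the autophagy adaptor that sequesters KEAP1, was at 642 and 656 FPKM with control siRNA, 136 FPKM with siRNA 28 and 124 FPKM with siRNA 30 (-2.31 ± 0.14 SE, adjusted p = 0.00338). OSGIN1, an oxidative stress-induced growth inhibitor, moved from 39.6 and 49.02 FPKM to 1.58 FPKM with siRNA 28 and 3.77 FPKM with siRNA 30 (-3.69 ± 0.31 SE, adjusted p = 0.0110). The tripartite motif gene TRIM16 (-2.51 ± 0.19 SE, adjusted p = 0.00754), its partial copy TRIM16L (-3.43 ± 0.19 SE, adjusted p = 0.00321) and the transcription factor CEBPB (-1.60 ± 0.13 SE, adjusted p = 0.00946) fell. MAFG, the small MAF partner, was at 16.7, 17.2, 5.27 and 7.32 FPKM (-1.31 ± 0.18 SE, adjusted p = 0.0662) and KEAP1 at 33.4, 32.5, 21.1 and 20.2 FPKM (-0.65 ± 0.13 SE, adjusted p = 0.145), both lower in the siRNA libraries but not past the threshold. BACH1, a repressor that competes for the same elements, differed by -0.15 ± 0.15 SE, adjusted p = 0.716.

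The core of the antioxidant response element, TGACNNNGC with N for any base, was searched on both strands. The window was the 300 bases from 250 before to 50 after the first start listed for each gene by RefSeq (GRCh38.p14). Sequences were found for 44 of the 57 lower protein-coding genes, of which 9 (20.5%) held a match. Of 9389 tested protein-coding genes with a sequence 15.2% held one, and of all 27305 promoters 13.6%. The windows around 7 of these matches are printed because they belong to the enzymes and transporters described above, each 29 bases and written so that the core, in capitals, reads 5′ to 3′. They show how the 3 free bases and the flanks differ between genes whose mRNA fell.
GCLM (chr1:93909446-93909474, plus strand): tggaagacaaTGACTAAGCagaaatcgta
TXNRD1 (chr12:104215670-104215698, plus strand): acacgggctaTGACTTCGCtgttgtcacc
ME1 (chr6:83431170-83431198, minus strand): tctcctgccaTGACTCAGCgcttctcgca
PIR (chrX:15493289-15493317, plus strand): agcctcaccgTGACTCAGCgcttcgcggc
PGD (chr1:10398853-10398881, minus strand): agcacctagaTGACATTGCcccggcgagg
ABCB6 (chr2:219219092-219219120, minus strand): cctgggcacgTGACCAAGCcggctctgct
CYP4F11 (chr19:15935005-15935033, plus strand): cagctcagggTGACACAGCatgggcacag
ME1 and TXNRD1 each held a second match, not printed. The ME1 and PIR cores shown are the same 9 bases, and their first 7 letters also spell the AP-1 element. Measured along the gene, the core covers bases 137 to 129 before the listed start in ME1, 34 to 26 before it in GCLM and 26 to 34 after it in PIR, on the strand of the gene in ME1 and on the opposite strand in the other two. A match describes the letters only, and elements farther from the start or at any other start of the gene were not searched.

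Several genes that fell are near copies of another that fell, and how reads were split between such copies is uncertain. The longest identical run between transcripts of AKR1C1 and AKR1C2 was 399 bases, and 31.9% of the 80-base windows of AKR1C2, the study's read length, also occur in AKR1C1. For TRIM16 and TRIM16L the run was 220 bases and the share 36.6%. Among the 8 genes annotated as pseudogenes that fell, TRIM16L included, FTH1P2, FTH1P8 and FTH1P20 are copies of the ferritin heavy chain, AKR1B10P1 of AKR1B10, and TXNP6 of thioredoxin. FTH1P2 was at 11.1, 11.9, 1.57 and 2.36 FPKM, and 26.4% of its 80-base windows occur in FTH1. TXNP6, at 5.93, 6.999, 0.807 and 1.52 FPKM (-1.80 ± 0.22 SE, adjusted p = 0.0409), had no 80-base window in common with TXN. NMRAL2P, a transcribed pseudogene of a redox sensor family, was at 8.02, 10.2, 0.328 and 0.691 FPKM (-2.74 ± 0.21 SE, adjusted p = 0.00754). The share of pseudogenes called lower was 1.09% of 731 tested, against 0.497% of protein-coding genes.

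Outside the redox lists the falls reached other kinds of protein. The largest fall of any protein-coding gene was that of TM4SF20, a membrane protein of the tetraspanin-like L6 family, at 91.7 and 72.7 FPKM with control siRNA, 2.398 FPKM with siRNA 28 and 7.51 FPKM with siRNA 30 (-3.94 ± 0.43 SE, adjusted p = 0.0275). NR0B1, an orphan nuclear receptor that lacks a DNA-binding domain of the usual form, moved from 35.1 and 29.97 FPKM to 2.23 FPKM with siRNA 28 and 2.69 FPKM with siRNA 30 (-3.28 ± 0.16 SE, adjusted p = 0.00286). The following 6 were chosen after their values were seen. SPP1, the secreted phosphoprotein osteopontin, was at 615 and 504 FPKM with control siRNA, 142 FPKM with siRNA 28 and 103 FPKM with siRNA 30 (-2.20 ± 0.21 SE, adjusted p = 0.0168). CPLX2, a complexin of vesicle release, moved from 586 and 436 FPKM to 63.5 FPKM with siRNA 28 and 104 FPKM with siRNA 30 (-2.62 ± 0.28 SE, adjusted p = 0.0251). UCHL1, a neuronal-type ubiquitin hydrolase, moved from 385 and 409 FPKM to 147 FPKM with siRNA 28 and 122 FPKM with siRNA 30 (-1.56 ± 0.15 SE, adjusted p = 0.0195). KYNU, kynureninase of tryptophan breakdown (-1.37 ± 0.17 SE, adjusted p = 0.0482), DDC, the decarboxylase of L-DOPA (-1.68 ± 0.15 SE, adjusted p = 0.0116), and SLC6A6, the taurine transporter (-1.54 ± 0.14 SE, adjusted p = 0.0167), were also lower. The long noncoding RNA LUCAT1 was at 6.45, 5.83, 1.36 and 1.28 FPKM (-1.62 ± 0.16 SE, adjusted p = 0.0195).

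In the main fit 5 protein-coding genes were called higher (0.0436% of 11464), named here after their values were seen. All but CHGB lost the call without the first control library, and again without the second. On protein-coding genes alone, rescaled, 156 were higher and 128 lower. Whatever their p, 42 (0.366%) were at least 1 higher with each siRNA without overlap, and 84 (0.733%) at least 1 lower. CHGB, a granin of secretory granules, was at 10.2 and 10.7 FPKM with control siRNA, 69.6 FPKM with siRNA 28 and 57.2 FPKM with siRNA 30 (2.49 ± 0.15 SE, adjusted p = 0.00338). RIMKLB, which joins glutamate to N-acetylaspartate, moved from 22.98 and 23.5 FPKM to 69.7 FPKM with siRNA 28 and 81.7 FPKM with siRNA 30 (1.66 ± 0.14 SE, adjusted p = 0.0116). GPRC5A, a retinoic acid-induced receptor abundant in lung epithelium, moved from 66.2 and 53.98 FPKM to 152 FPKM with siRNA 28 and 152 FPKM with siRNA 30 (1.33 ± 0.15 SE, adjusted p = 0.0317). Both siRNA libraries of these 3 were well above either control, and close to each other. PKDCC, a secreted kinase (1.20 ± 0.15 SE, adjusted p = 0.0441), and HABP2, a hyaluronan-binding protease (1.86 ± 0.22 SE, adjusted p = 0.0360), completed the group. Other differences above 1 that varied more between the siRNAs did not pass. The chemokine CCL2 was at 29.1, 23.7, 174 and 71.3 FPKM (2.04 ± 0.41 SE, adjusted p = 0.149), and IL11, a cytokine of the interleukin 6 family, at 1.78, 0.977, 9.73 and 4.75 FPKM (1.74 ± 0.34 SE, adjusted p = 0.145).

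NOTCH3, a receptor of the Notch pathway, was at 9.15 and 10.5 FPKM with control siRNA, 2.23 FPKM with siRNA 28 and 2.41 FPKM with siRNA 30 (-1.70 ± 0.16 SE, adjusted p = 0.0161), with the siRNA libraries close to each other. Of 14 Notch receptors, ligands and response genes tested it alone passed, and the median of that list was near 0 and changed sign between settings (-0.01, and -0.13 to 0.08 without 1 library). Without either control library NOTCH3 missed the threshold. NOTCH1 was at 2.304, 2.42, 2.002 and 2.07 FPKM (-0.15 ± 0.16 SE, adjusted p = 0.743) and the ligand JAG1 at 34.1, 31.95, 29.1 and 36.2 FPKM (-0.02 ± 0.16 SE, adjusted p = 0.971). The response gene HES1 overlapped between groups, at 35.3, 15.7, 39.1 and 17.7 FPKM. A list of 16 effector genes holds part of those that the study picked with these same libraries. Of 15 tested all lay below the controls with both siRNAs and 3 passed, NOTCH3, NR0B1 and the centromere histone chaperone HJURP (-1.07 ± 0.12 SE, adjusted p = 0.0345). The count was 9 without mitochondrial and small noncoding RNAs, 8 on protein-coding genes alone, 2 without the first control and 1 without the second. The study also picked C1S, a complement protease, and NEDD4, a ubiquitin ligase, which are not on the list and are named after their values were seen. C1S was at 4.86, 5.995, 0.908 and 0.981 FPKM (-1.72 ± 0.17 SE, adjusted p = 0.0221) and NEDD4 at 33.1, 29.2, 11.01 and 11.9 FPKM (-1.36 ± 0.14 SE, adjusted p = 0.0251), both past the threshold. These directions are not independent evidence, since the genes were drawn from these samples. F2RL2, a thrombin receptor family member, was at 3.27, 6.58, 0.231 and 0.205 FPKM (-2.22 ± 0.30 SE, adjusted p = 0.0573).

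Other pathways held few calls or none. In serine synthesis and ATF4 targets 21 of 22 genes were below 0, 13 without overlap, with a median of -0.33, and none passed, with SLC7A5, a leucine transporter, at -0.96 ± 0.14 SE, adjusted p = 0.0705, asparagine synthetase ASNS at -0.94 ± 0.18 SE, adjusted p = 0.130 and PHGDH, the first enzyme of serine synthesis, at -0.88 ± 0.15 SE, adjusted p = 0.0975. When mitochondrial and small noncoding RNAs were left out and values rescaled, 4 of these 22 were called lower, against 3 on protein-coding genes alone and 1 with median-ratio scaling. Proliferation genes had a median of -0.25 (-0.16 without the siRNA 28 library) with 22 of 26 below 0, 16 without overlap, and none called, for example MCM2 of the replicative helicase at 91.9, 87.8, 68.1 and 63.6 FPKM (-0.44 ± 0.13 SE, adjusted p = 0.259) and MKI67 at -0.18. Of 20 p53 targets 1 passed, the stress cytokine GDF15, from 94.9 and 70.7 FPKM to 26.9 FPKM with siRNA 28 and 28.5 FPKM with siRNA 30 (-1.53 ± 0.18 SE, adjusted p = 0.0345). This call was lost without any 1 of the 4 libraries, as were those of GSR, TKT, ABCB6, EPHX1, HJURP, GPRC5A and PKDCC. On protein-coding genes alone 2 of the p53 targets were lower and 1 higher, and 1 lower and 1 higher without mitochondrial and small noncoding RNAs. CDKN1A overlapped at 32.3, 29.3, 40.8 and 29.3 FPKM. Interferon-stimulated genes had a median of 0.31 (14 of 16 above 0, 10 without overlap) and inflammatory genes of 0.34 (13 of 16 above 0, 7 without overlap), with none past the threshold in either. Without the siRNA 28 library these medians were 0.48 and 0.53, and without the first control the inflammatory median was 0.69. On both rescaled sets 1 inflammatory gene was called lower and 3 higher, and 1 higher without the siRNA 30 library. Over all tested genes 20.5% were lower and 25.2% higher without overlap. Cholesterol and fatty acid genes (26 tested), epithelial and mesenchymal genes (14) and YAP/TEAD targets (14) held no call. Their medians of 0.12, -0.02 and 0.16 changed sign when 1 library was left out. The cholesterol median ran from -0.06 without siRNA 28 to 0.23 without siRNA 30, the epithelial and mesenchymal one from -0.17 without the second control to 0.28 without the first, and the YAP/TEAD one from -0.04 without siRNA 28 to 0.54 without siRNA 30.

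**Figure D4:**
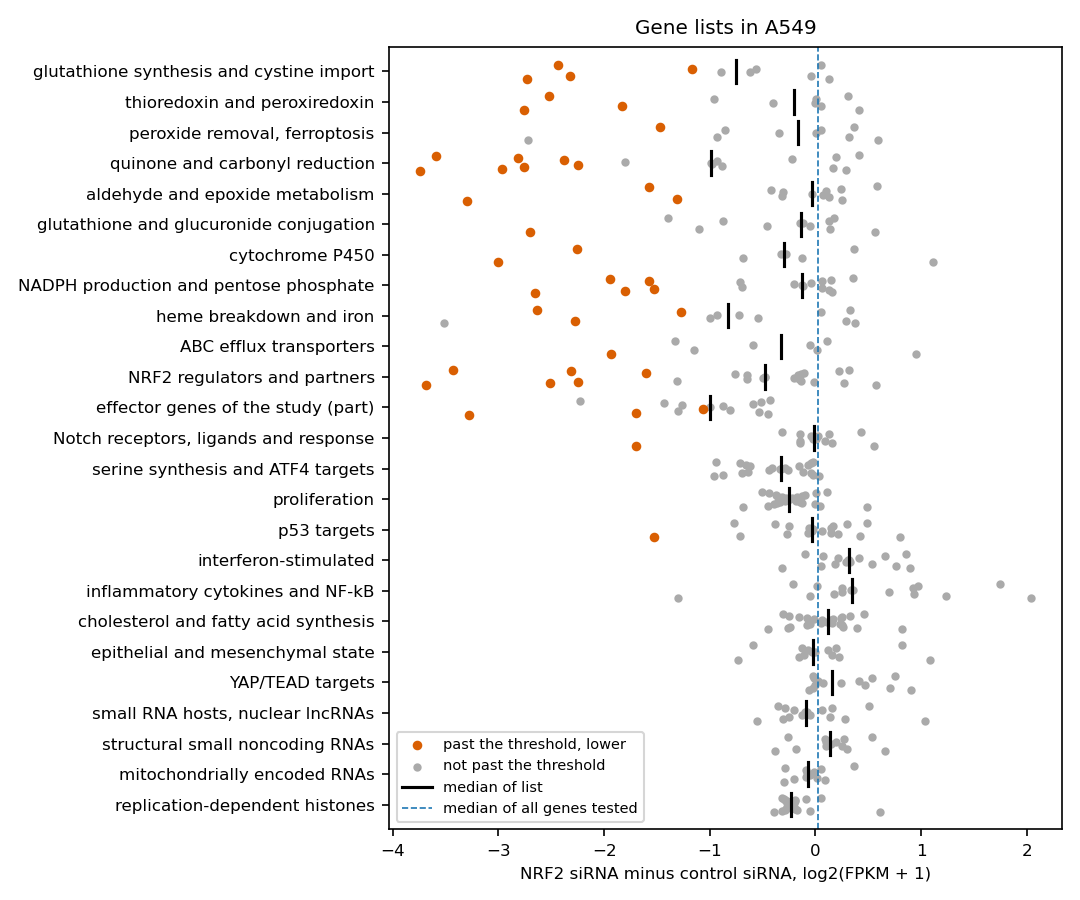
Log2(FPKM + 1) difference of NRF2 siRNA minus control siRNA (horizontal axis) for the tested members of 25 gene lists (vertical axis), 1 point per gene, with points past the threshold in orange, the list median as a black bar and the median of all tested genes as a dashed line. The orange points, all at -1.07 or lower, lie in the redox, transporter, NRF2 regulator, effector, Notch and p53 lists, and the quinone and carbonyl list has the most, 7 of 17.

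Lists of structural small RNAs, histone genes, nuclear and host RNAs and mitochondrial RNAs held no call, except 1 host RNA that was called higher when mitochondrial and small noncoding RNAs were left out. RN7SK, a regulator of transcription elongation, was at 85192 and 75942 FPKM with control siRNA, 103694 FPKM with siRNA 28 and 88902 FPKM with siRNA 30 (0.26 ± 0.34 SE, adjusted p = 0.799). RNY1, a Y RNA bound by the Ro protein, was at 39486 and 55381 FPKM with control siRNA, 109054 FPKM with siRNA 28 and 49666 FPKM with siRNA 30 (0.65 ± 0.48 SE, adjusted p = 0.619), so that the siRNA 28 library alone was high. Small noncoding RNAs as a class (435 tested) had a median difference of 0.59 with siRNA 28 and -0.05 with siRNA 30, against 0.06 and -0.0037 for all genes. None of 14 structural small RNAs listed passed. Of 62 replication-dependent histone genes listed 29 were matched by symbol and 33 were not, and the list is therefore incomplete. Of 26 tested 24 were below 0, with a median of -0.23 (-0.13 without the siRNA 30 library) and none past the threshold. H2BC11 was at 555, 680.4, 476 and 461 FPKM (-0.39 ± 0.16 SE, adjusted p = 0.395) and H1-4 at 911, 785, 753 and 631 FPKM (-0.29 ± 0.17 SE, adjusted p = 0.536). Their siRNA libraries were below the controls in 20 of 26, against 20.5% of all genes tested. None of 16 small RNA host genes and nuclear long noncoding RNAs passed. MALAT1 was at 86.7, 105, 103 and 109.6 FPKM (0.15 ± 0.15 SE, adjusted p = 0.717) and SNHG15 at 16.3, 14.5, 37.7 and 28.4 FPKM (1.04 ± 0.18 SE, adjusted p = 0.110). Mitochondrial mRNAs took 1.29% and 1.28% of the FPKM sum in the controls, 0.892% with siRNA 28 and 1.56% with siRNA 30. These shares lay on either side of the controls, none of 13 genes tested passed, and both mitochondrial ribosomal RNAs were listed at 0.

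The 21 small noncoding RNAs past the threshold were mostly listed at 0 in both libraries of 1 group. Of the 12 that were higher, all were listed at 0 in both controls, and of the 9 that were lower 8 were listed at 0 in both siRNA libraries, and no fold is given. For 9 of the 21, and not for the other 12, a value of 1 fragment was inferred from small RNAs of the same annotated length. The called RNAs were not left out of this step, so their match to it is in part fixed. Of their 18 values above 0, 16 were a whole number of fragments within 0.005, and the highest was 2 fragments. The exceptions were both values of RNY3P2, a Y RNA pseudogene, at 0.90 and 0.88 of a fragment. All 49 genes that went at least 1 down with one siRNA and at least 1 up with the other were also small noncoding RNAs (14 down and 35 up with siRNA 28). Of the called ones, 7 of the 9 lower and 9 of the 12 higher were Y RNA copies, of a class (miscellaneous RNA) that made up 195 of the 435 small noncoding RNAs tested. The 2 lower copies on chromosome 5 with the length of RNY3, 102 bases, had the same values, 13.9 and 22.95 FPKM in the controls and 0 in both siRNA libraries, which equals 1 fragment and 2 fragments. A lower copy of that length on chromosome 6 had 1 fragment in each control. RNY3 itself was at 97.3, 68.9, 146 and 31.7 FPKM, lowest with siRNA 30 and highest with siRNA 28.

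The A549 changes were set beside the same contrast in H2023 and H460. Of 11571 genes with at least 1 FPKM in 2 libraries of every line, the difference between the A549 effect and the mean effect of the other lines passed an adjusted p of 0.05 for 0 in limma (0%), and 1281 (11.1%) had an unadjusted p under 0.05. Other settings of this test gave 0 to 35 genes, so no gene is called particular to A549. A549 was the rRNA-depleted line and the others were polyA-selected, so line and library type cannot be told apart. Of the 57 protein-coding genes lower in A549, 54 were below 0 in H2023 and 54 in H460, against 48.1% and 50.97% of all 11464 tested. Of the 5 that were higher, 4 were above 0 in H2023 and 4 in H460, against 5935 and 5581 of all 11464 tested. The difference of the remaining gene in H460, HABP2, was 0. GCLC differed by -2.33 in A549, -2.44 in H2023 and -2.65 in H460, and TXN by -1.83, -2.15 and -1.77. NFE2L2 differed by -2.24, -3.86 and -3.60 (adjusted p of the difference = 0.177). For SPP1 the values were -2.20, -0.38 and -0.31 (adjusted p = 0.209), and for ABCC2 -1.93, -1.59 and -0.06 (adjusted p = 0.139). GDF15 was -1.53 in A549 and 0.79 in H2023, with -0.36 in H460 (adjusted p = 0.583). DDC, TM4SF20 and GPX3 did not reach 1 FPKM in 2 libraries of every line and were not tested for a difference.

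**Figure D5:**
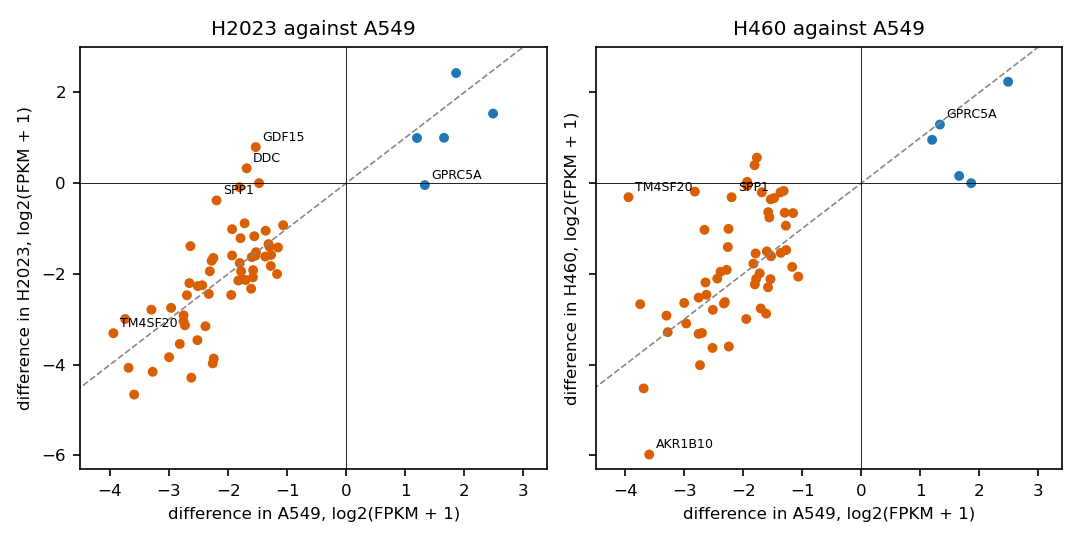
Log2(FPKM + 1) difference in A549 (horizontal axes) against that in H2023 (left) and H460 (right) for the 62 protein-coding genes past the threshold in A549, lower genes in orange and higher genes in blue; the dashed line marks equal differences. SPP1 lies near 0 in both other lines and GDF15 above 0 in H2023, but no gene passed the test of the difference.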

How the data were processed

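Total RNA of A549 cells, 2 libraries with control siRNA and 2 with NRF2 siRNA, was depleted of ribosomal RNA and sequenced with a strand-specific protocol. The deposited values are FPKM per gene for 57815 genes. The study's methods name TopHat and Cufflinks on hg19, whereas the submitters' processing notes list bcl2fastq 2.15.0, cutadapt 1.15, STAR 2.5.3a, SAMtools, HTSeq, Cuffnorm, DESeq2 and R 3.2.0 with hg19 (GRCh37.p13), so which aligner made these FPKM is uncertain. Cuffnorm and Cufflinks can share reads between similar genes. The authors also deposited tables of their own fold changes and p-values, which were not used here. The number of reads is unknown and no counting interval is given.

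FPKM under 1e-06 were set to 0 (2568 values). Genes with at least 1 FPKM in 2 or more of the 4 libraries (13898) were tested on log2(FPKM + 1) with limma 3.58.1 in R 4.3.3, with a variance trend, 2 residual degrees of freedom, 2-sided tests and Benjamini-Hochberg adjustment over all genes tested at a threshold of 0.05. A fold change on this scale understates the change of low genes. The difference from the other lines was fitted over all 12 libraries. The steps were tested on simulated data. Tables were handled with Python 3.11.15. RNA classes were taken from GENCODE (96.1% of genes matched by ID).

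The members and the gene lists were chosen with earlier results of these data known. Named genes were NRF2, KEAP1, NOTCH3, CEBPB and classic targets, the 12 largest falls and 8 largest rises past the threshold, the 4 smallest p-values and every call of each list, the 4 smallest p-values of each RNA class, and the largest changes seen with both siRNAs. Any other gene is named as chosen after its values were seen. Some items are not reported here. Replicate numbers did not pair the A549 libraries (correlation of same-numbered deviations -0.03). Alternatives changed the pseudocount, the filter, the variance trend, the scaling, the libraries in the fit and the block, and left out each library. No 2 libraries held identical values.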

Additional observations from a re-analysis of the deposited data

How the results depend on the processing

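Counts of lower and higher genes were 77 and 17. They were 0 and 0 with no filter on low values, where 35376 genes were tested and 1358 lower and 2012 higher genes had an unadjusted p under 0.05 in limma. They were 142 and 91 without mitochondrial and small noncoding RNA, 128 and 156 on protein-coding genes only (a setting added after seeing the data), and 102 and 38 with 12 libraries in 1 fit. Leaving out 1 library gave 29 to 84 lower and 16 to 38 higher genes, the low counts of 29 and 30 coming without the first or the second control. The other alternatives gave 53 to 84 lower and 14 to 25 higher genes. The replicate block gave 65 lower and 25 higher, and A549 samples shared only a number (correlation -0.03).

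NFE2L2 lay between -2.49 and -1.999 without 1 library, and its adjusted p was above 0.05 without either control and with no filter (-2.24, adjusted p = 0.235). Among other named genes the sign changed for 6 that did not pass. On protein-coding genes only JAG1 was at 0.047 and GSS at 0.032. Without 1 library GSS ranged from -0.29 to 0.21, JAG1 from -0.18 to 0.13, CDKN1A from -0.068 to 0.39, HES1 from -0.41 to 0.71, KRT18 from -0.036 to 0.48 and RNY3 from -1.34 to 0.83. Of the 56 other named genes that passed, 9 to 39 lost the call without 1 library, 17 with a minimum on the mean FPKM, 7 with the replicate block and 0 on either set of rescaled values that held them. Those 2 sets also called 24 and 25 named genes that had not passed. Genes whose effect differed between A549 and the other lines were 0, against 6 with a pseudocount of 0.1, 35 with at least 1 FPKM in any 2 of 12 libraries, 1 with median-ratio scaling, 27 with a weight per cell line, 0 to 2 without 1 library and 0 with the replicate block. The causes of these changes were not tested. With 2 libraries a group and unknown read depth, small differences may have been missed. The 9 called small noncoding RNAs whose fragment value was inferred held at most 2 fragments a library.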

Other observations

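Genes outside the lists described so far were at least 1 higher with each siRNA without passing the threshold, and those named here were chosen after their values were seen. Both chains of HLA-DM, which loads peptides on MHC class II, were among them. HLA-DMB was at 18.3 and 10.99 FPKM with control siRNA, 57.8 FPKM with siRNA 28 and 49.9 FPKM with siRNA 30 (1.85 ± 0.25 SE, adjusted p = 0.0588), and HLA-DMA at 3.95 and 2.54 FPKM with control siRNA, 11.8 FPKM with siRNA 28 and 9.86 FPKM with siRNA 30 (1.49 ± 0.22 SE, adjusted p = 0.0705). Both siRNA libraries lay above both controls for either chain. RGS2, a brake on G protein signalling, was at 12.1 and 9.57 FPKM with control siRNA, 171 FPKM with siRNA 28 and 55.9 FPKM with siRNA 30 (3.07 ± 0.50 SE, adjusted p = 0.0971). TFF1, a secreted trefoil peptide of mucosal surfaces, was at 13.8 and 9.36 FPKM with control siRNA, 33.2 FPKM with siRNA 28 and 33.2 FPKM with siRNA 30 (1.47 ± 0.20 SE, adjusted p = 0.0608). The groups did not overlap in either gene. Over all genes tested 0.518% were at least 1 higher with each siRNA and without overlap.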
